A study of Mus musculus with 5 samples.

Results

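Molecular layer interneurons, the stellate and basket cells of the cerebellar cortex, were followed through 10 marker genes: Kit, Prkcd, Gjd2, Sorcs3, Tfap2a, Tfap2b, Nxph1, Ptprk, Lypd6 and Pax2. The genes were listed by name as markers of these cells and of their precursors and were found by symbol among the 55421 genes of the deposited raw count table. All 10 passed the filter on low counts and were among the 20388 genes tested. The libraries are bulk RNA-seq of whole cerebella taken at postnatal day 14. The 2 control libraries are from mice of the genotype Pcp2 Cre/+; Yy1 fx/+, and the 3 Yy1 cKO libraries are from their littermates of the genotype Pcp2 Cre/+; Yy1 fx/fx. All animals therefore carried Pcp2 Cre and at least 1 floxed Yy1 allele, and the controls are heterozygous for the floxed allele, not wild type. The Pcp2 promoter drives Cre in Purkinje cells, the cells that stellate and basket cells inhibit. Sexes were mixed.

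Stellate and basket cells are GABAergic neurons that take input from parallel fibres and inhibit Purkinje cells, basket cells around the soma and stellate cells on the dendrites. They descend from precursors that express the transcription factor Pax2, migrate from the white matter into the molecular layer during early postnatal life, and are the last inhibitory neurons of the cerebellum to settle. Mature cells fall into a pair of molecular classes, of which one is marked by Sorcs3 and coupled by gap junctions of connexin 36, the product of Gjd2, and the other is marked by Nxph1. The receptor tyrosine kinase KIT is carried by these interneurons, while its ligand, encoded by Kitl, is made by Purkinje cells.

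Total counts were 17424860 to 20305705 per library. Yy1 itself stood at 74.6 and 73.7 CPM in the control libraries against 73.4, 81.7 and 75.8 CPM in Yy1 cKO (CPM are counts scaled by library size and the trimmed mean of M values, TMM), with a log2 fold change of 0.05 ± 0.065 (SE, adjusted p = 0.61). Whole-tissue counts over the whole gene do not separate the deleted part, so this checks the labels little. Of the principal components, the first (59.3% of the variance) split control from Yy1 cKO and the second (18.5%) split Yy1 cKO 3 from all others, so values without that library are given for the genes named where they change a call. Control 1 and Yy1 cKO 3 were the libraries with counts of Y-linked Ddx3y, so each group held both kinds. Of all genes tested 23.4% were called (10.7% higher and 12.6% lower in Yy1 cKO) by the edgeR quasi-likelihood test at a Benjamini-Hochberg adjusted p under 0.05. With TMM scaling 45.9% of the calls were higher, and with scaling by total counts 29.8%. The labels number the replicates without naming animals, and the p-values speak for the spread among these libraries. Ddx3y counts show that the controls came from different animals, as did Yy1 cKO 3 and the other Yy1 cKO libraries. Whether Yy1 cKO 1 and 2 came from different animals is not stated, so the spread between them may be technical. Calls gained below without Yy1 cKO 3 rest on that pair alone for the Yy1 cKO group, so they may rest on the same animal.

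The markers did not move as a block. Kit, Prkcd, Sorcs3 and Lypd6 rose in the Yy1 cKO cerebella by between 1.48-fold and 1.87-fold, Ptprk fell to 0.690 of the control level, and Gjd2, Nxph1, Tfap2a, Tfap2b and Pax2 were not called. The 4 of 10 markers called higher stand beside 10.7% of all genes tested, and the 1 called lower beside 12.6%. A rise of at least 1.5-fold was called for 3 of the 10, beside 3.35% of all genes. Among the 10198 genes with a mean level in the range spanned by the markers (8.57 to 174 CPM), 14.7% were called higher and 14.6% lower. The median log2 fold change of the 10 markers was 0.22, beside -0.001 over all genes tested. The CPM of the groups did not overlap for 7 of the 10 (4 higher, beside 25.2% of all genes tested, and 3 lower, beside 27.0%), against 52.2% of all genes in either direction. In whole tissue, fewer cells of a type and less RNA per cell cannot be told apart, and the same holds for more cells and more RNA per cell.

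**Figure D1:**
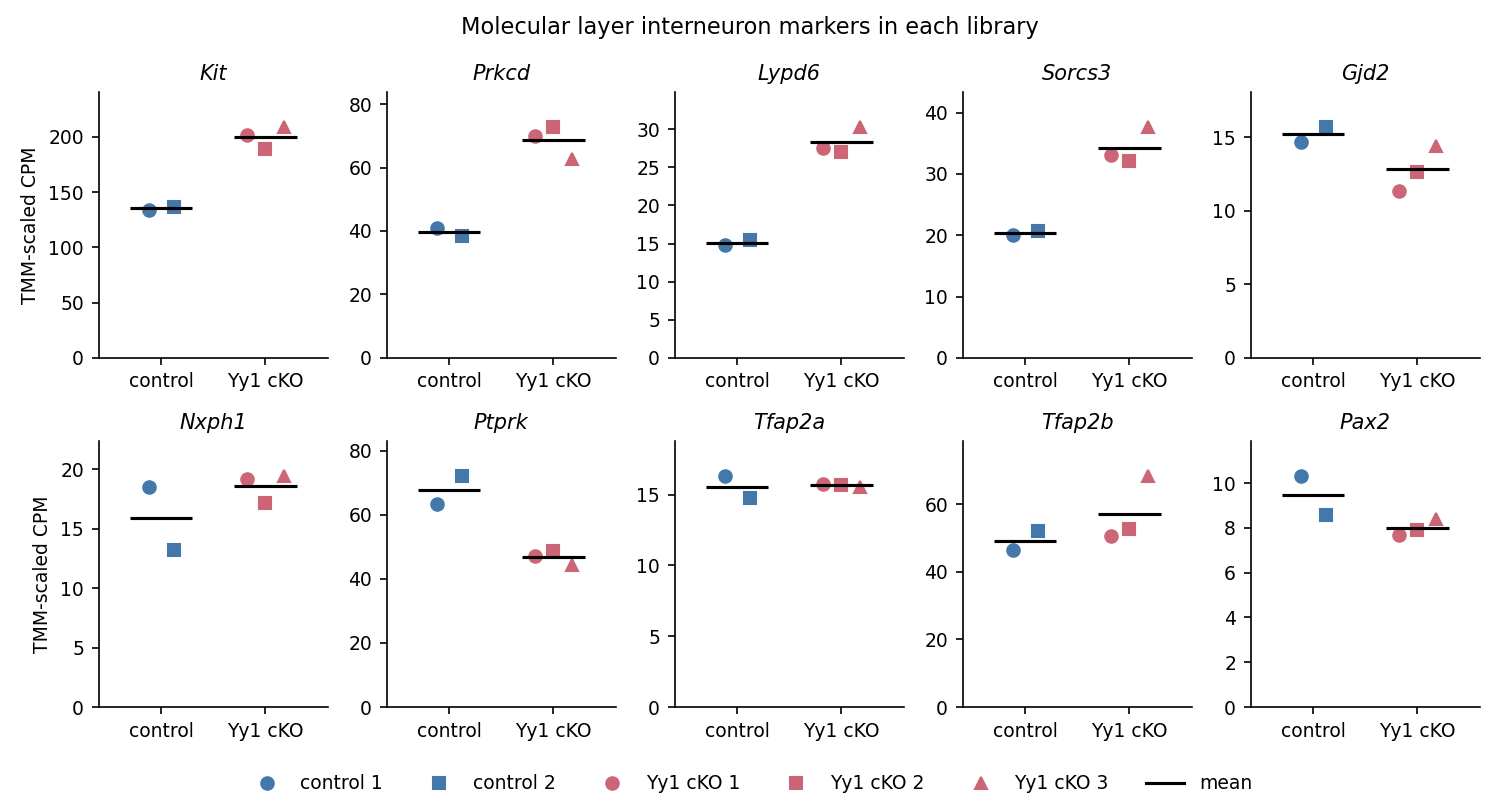
TMM-scaled CPM of the 10 markers in each of the 5 libraries (points, shaped by replicate number; y axes start at 0) with the mean of each group (line). Kit, Prkcd, Lypd6 and Sorcs3 lie above both controls in all 3 Yy1 cKO libraries, Ptprk lies below, and Tfap2a, Tfap2b and Nxph1 overlap.

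The promoters of the markers that rose or fell are shown because these 5 genes were called, and because TFAP2A and TFAP2B, both among the markers, are DNA-binding factors with a known recognition sequence. Each is the 250 bases before the first listed start site, 5′ to 3′ on the strand of the gene, from RefSeq on GRCm38.p6, where all 10 markers were found, and capitals mark matches to the AP-2 sequence GCCNNNGGC or the YY1 sequence GCCATNTT, searched on both strands.
Kit promoter, chr5:75574737-75574986, plus strand: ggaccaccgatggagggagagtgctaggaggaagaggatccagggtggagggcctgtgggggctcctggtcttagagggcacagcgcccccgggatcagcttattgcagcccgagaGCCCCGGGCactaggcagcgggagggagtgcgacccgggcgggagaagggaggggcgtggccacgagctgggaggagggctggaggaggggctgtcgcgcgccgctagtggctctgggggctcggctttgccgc
Prkcd promoter, chr14:30626209-30626458, minus strand: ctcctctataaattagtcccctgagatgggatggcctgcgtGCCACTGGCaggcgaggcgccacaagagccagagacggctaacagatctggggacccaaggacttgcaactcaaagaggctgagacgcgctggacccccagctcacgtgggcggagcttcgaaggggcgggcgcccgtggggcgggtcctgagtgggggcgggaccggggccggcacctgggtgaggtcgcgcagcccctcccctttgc
Sorcs3 promoter, chr19:48205775-48206024, plus strand: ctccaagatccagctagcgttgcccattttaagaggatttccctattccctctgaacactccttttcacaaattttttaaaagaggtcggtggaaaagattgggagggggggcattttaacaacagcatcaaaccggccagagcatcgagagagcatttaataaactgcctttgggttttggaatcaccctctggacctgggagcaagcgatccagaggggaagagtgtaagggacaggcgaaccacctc
Lypd6 promoter, chr2:50066179-50066428, plus strand: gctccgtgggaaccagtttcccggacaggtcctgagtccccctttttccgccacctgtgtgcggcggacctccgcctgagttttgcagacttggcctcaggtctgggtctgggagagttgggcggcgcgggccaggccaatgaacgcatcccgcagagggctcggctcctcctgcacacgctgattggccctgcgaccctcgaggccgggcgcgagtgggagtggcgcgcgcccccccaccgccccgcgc
Ptprk promoter, chr10:28074570-28074819, plus strand: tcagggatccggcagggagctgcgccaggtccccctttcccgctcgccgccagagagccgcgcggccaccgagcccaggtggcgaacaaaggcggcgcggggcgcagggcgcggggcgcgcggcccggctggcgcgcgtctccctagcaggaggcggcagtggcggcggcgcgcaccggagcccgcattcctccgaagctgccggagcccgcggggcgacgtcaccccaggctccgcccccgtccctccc
The Kit window held 1 AP-2 match, which began 134 bases before the start site, and the Prkcd window held 1, which began 209 bases before it. The other 8 markers had no AP-2 match in their windows, and 13.6% of the 27025 windows of all genes had at least 1. None of the 10 windows held the YY1 letters, beside 3.93% of all windows. Kit, Prkcd, Tfap2a and Pax2 had more than 1 window listed, of which only the first was searched. The Pax2 window ended at 44746600, outside the annotated gene, which starts at 44756045. The first bases after that window were in no annotated Pax2 transcript. The Tfap2a, Tfap2b and Nxph1 windows lay inside the annotated gene. The Kit window lay partly inside it, as the window ended at 75574986 and the annotated gene starts at 75574916. The Prkcd window, on the minus strand, reached down to 30626209, just inside the annotated gene, which ends at 30626210. Base composition differed among the genes that rose: G and C made up 70.8% of the Kit window, 67.6% of the Prkcd window, 70.4% of the Lypd6 window and 48.4% of the Sorcs3 window, beside a median of 52.0% over all windows. The Ptprk window had 79.2% G and C and 38 CpG dinucleotides, the most of the 10 markers, beside a median of 6 over all windows. A match is a description of the letters and not a binding site, and the absence of one says only that the letters are not in this window.

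Levels were compared between genes per kilobase of exon. In the controls Kit was the most abundant marker at 15.2 ± 0.26 CPM per kb (SD, n = 2), followed by Tfap2b at 7.77 ± 0.64 and Prkcd at 7.14 ± 0.34, and the libraries of the last pair overlapped. Gjd2 (5.28 ± 0.26) and Ptprk (5.08 ± 0.47) overlapped as well, and Lypd6 (4.06 ± 0.14) stood below them. Nxph1 (3.34 ± 0.79) and Tfap2a (3.17 ± 0.22) overlapped. Sorcs3 stood at 2.85 ± 0.070, inside the range of the Nxph1 libraries (2.78 to 3.90), so its ninth place is that of its mean only. Pax2, the precursor marker, was lowest at 1.75 ± 0.23 CPM per kb. In Yy1 cKO the order of the ends was kept, with Kit at 22.5 ± 1.1 and Pax2 at 1.48 ± 0.065 CPM per kb (SD, n = 3). Between them Prkcd (12.4 ± 0.93) stood above Tfap2b (9.03 ± 1.5) with no overlap, while Tfap2b overlapped Lypd6 (7.60 ± 0.47), and Sorcs3 moved from the ninth place to the fifth, at 4.81 ± 0.42 CPM per kb, where it overlapped Gjd2 (4.45 ± 0.54). Ptprk moved from the fifth place to the eighth, at 3.51 ± 0.16 CPM per kb, where it overlapped Nxph1 (3.91 ± 0.26).

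**Figure D2:**
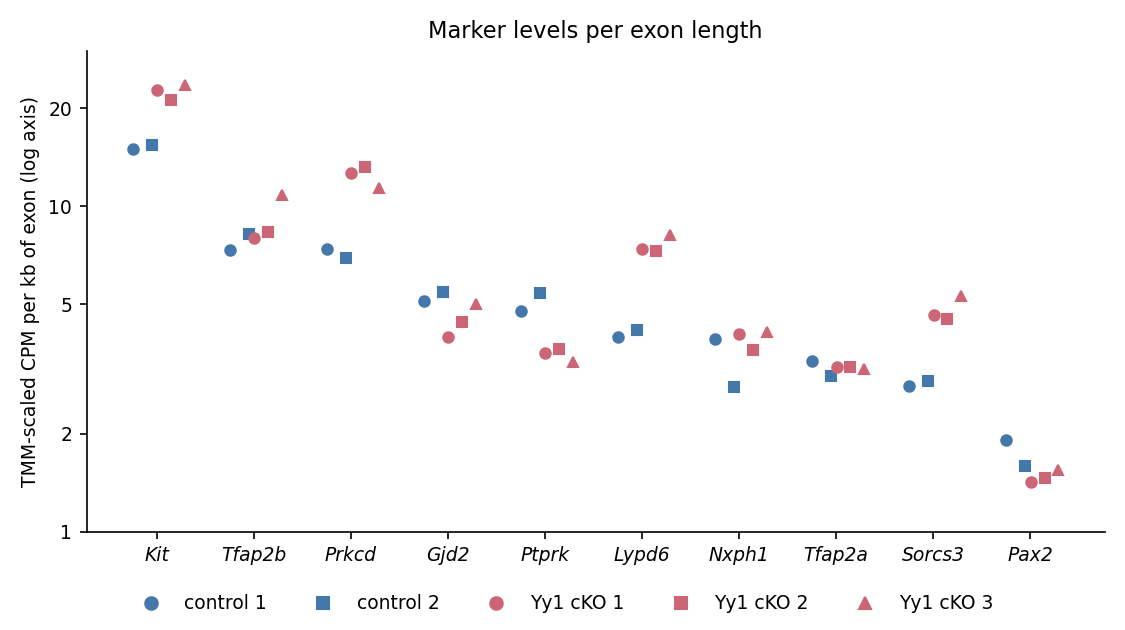
TMM-scaled CPM per kilobase of exon (log axis) of each marker in the 5 libraries, with genes in the order of their control means. Kit is highest and Pax2 lowest in both groups, and Sorcs3 and Lypd6 pass their neighbours in Yy1 cKO.

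KIT is the receptor tyrosine kinase for stem cell factor. Kit (ENSMUSG00000005672.12, chromosome 5, 75574916 to 75656722, plus strand, GRCm38, 8911 bases of exon) stood at 133.6 and 136.9 CPM in the control libraries against 201.9, 189.0 and 209.2 CPM in Yy1 cKO. All Yy1 cKO libraries were above both controls, and the spread within each group was small beside the gap. The log2 fold change was 0.56 ± 0.060 (SE, adjusted p = 1.7e-04). Kitl, the ligand gene of Purkinje cells, stood at 106 and 92.3 CPM in the control libraries against 128, 134 and 80.5 CPM in Yy1 cKO, and was not called (0.20 ± 0.27, adjusted p = 0.67). Yy1 cKO 1 and 2 were above both controls for Kitl and Yy1 cKO 3 was below both, and without Yy1 cKO 3 Kitl was called higher (log2 fold change 0.40, adjusted p = 1.8e-04). That call of Kitl rests on Yy1 cKO 1 and 2, whose spread may be technical. Kit kept its call without Yy1 cKO 3 and without each of the others, with log2 fold changes of 0.53 to 0.61. Kit is also expressed by mast cells and melanocytes. The mast cell genes Cma1, Fcer1a and Ms4a2 had no count in any library, and Cpa3, Mcpt4 and Tpsb2 had 1 count each over all 5. Of 6 melanocyte genes Tyr had no count, Tyrp1 and Mlana did not reach the filter, and Dct, Pmel and Mitf were not called. The summed level of the 6 was 16.4 to 20.6 CPM in the controls and 15.6 to 25.1 CPM in Yy1 cKO. Dct stood at 1.18 and 8.03 CPM in the control libraries against 0.755, 0.657 and 5.53 CPM in Yy1 cKO. Mitf, the most abundant of them, stood at 14.51 and 11.99 CPM against 17.01, 14.51 and 19.17 CPM (0.35 ± 0.14, adjusted p = 0.11). The part of melanocytes in the Kit value was not tested.

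Prkcd encodes protein kinase C delta, which in the cerebellar cortex is used as a marker of molecular layer interneurons. Prkcd (ENSMUSG00000021948.17, chromosome 14, 30595354 to 30626210, minus strand) stood at 40.9 and 38.3 CPM in the control libraries against 70.0, 72.9 and 62.8 CPM in Yy1 cKO. The groups did not overlap, and Yy1 cKO 3 was the lowest of its group, unlike for Kit. The log2 fold change was 0.79 ± 0.080 (adjusted p = 1.2e-04), a 1.73-fold rise. Of 5 other kinases of the family, Prkcb fell (-0.36 ± 0.055, adjusted p = 0.0015), and Prkca, Prkce, Prkch and Prkcq were not called, with Prkcq called lower without Yy1 cKO 3 (-0.58, adjusted p = 0.010).

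Lypd6, a lipid-anchored protein of the Ly6 family that acts on nicotinic receptors, had the largest fold change of the 10. Lypd6 (ENSMUSG00000050447.15, chromosome 2, 50066429 to 50193569, plus strand) stood at 14.8 and 15.5 CPM in the control libraries against 27.6, 27.1 and 30.3 CPM in Yy1 cKO. The groups were far apart beside their spread. The log2 fold change was 0.90 ± 0.10 (adjusted p = 2.1e-04), a 1.87-fold rise. Its nearest relative Lypd6b was close to the limit of detection, at 1.45 and 0.892 CPM in the control libraries against 0.755, 0.548 and 0.483 CPM in Yy1 cKO (-0.97 ± 0.39, adjusted p = 0.11).

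Sorcs3 and Nxph1, which mark the separate classes of mature interneuron, had different values. Sorcs3, a sorting receptor of the sortilin family (ENSMUSG00000063434.6, chromosome 19, 48206025 to 48805505, plus strand), stood at 19.99 and 20.7 CPM in the control libraries against 33.1, 32.0 and 37.7 CPM in Yy1 cKO, all above both controls. It rose by 0.75 ± 0.099 on the log2 scale (adjusted p = 5.6e-04). Nxph1 (ENSMUSG00000046178.3, chromosome 6, 8948431 to 9249032, plus strand), whose product neurexophilin 1 binds alpha-neurexins, stood at 18.5 and 13.2 CPM in the control libraries against 19.2, 17.2 and 19.4 CPM in Yy1 cKO. Control 1 lay within the range of the Yy1 cKO libraries and control 2 below it. Nxph1 was not called (0.23 ± 0.14, adjusted p = 0.30), and its value rested on which control was used: it was 0.49 without control 1 (adjusted p = 0.079) and 0.01 without control 2 (adjusted p = 0.98). The log2 ratio of Sorcs3 to Nxph1 was 0.11 and 0.65 in the control libraries against 0.79, 0.90 and 0.96 in Yy1 cKO. These ratios do not overlap between the groups, but the controls differed from each other by more than the group means did, and the ratio was chosen after its values were seen and was not tested. Among relatives, Sorcs1 also rose (0.86 ± 0.13, adjusted p = 0.0010), as did Sorl1 (0.49 ± 0.063, adjusted p = 4.8e-04), while Sorcs2 and Sort1 were not called, and Nxph4 fell (-0.79 ± 0.13, adjusted p = 0.0017). Of the neurexin genes, Nrxn2 (0.31 ± 0.063, adjusted p = 0.0064) and Nrxn3 (0.32 ± 0.068, adjusted p = 0.0076) rose, and neither was called without control 1 (adjusted p = 0.078 and 0.051) or without control 2 (adjusted p = 0.070 and 0.11).

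Gjd2 encodes connexin 36, the gap junction protein that couples interneurons electrically. Gjd2 (ENSMUSG00000068615.4, chromosome 2, 114009601 to 114013619, minus strand) stood at 14.7 and 15.7 CPM in the control libraries against 11.4, 12.7 and 14.4 CPM in Yy1 cKO. All Yy1 cKO values were below both controls, but the nearest pair was close, and the change was not called (-0.25 ± 0.12, adjusted p = 0.19). It was called lower without Yy1 cKO 3 (-0.34, adjusted p = 0.044). Gjd2 shares exon sequence with A530058N18Rik on the opposite strand, which was called higher (0.45 ± 0.13, adjusted p = 0.037) at 6.72 and 6.25 CPM in the control libraries against 8.30, 9.42 and 8.86 CPM in Yy1 cKO. The strand setting of the counting is not given in the sources used here, so reads of the pair may have been mixed and the Gjd2 value is uncertain. Sorcs3 and Gjd2, both known from the same class of interneuron, had values of opposite sign.

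Ptprk was the 1 marker that fell. It encodes receptor tyrosine phosphatase kappa, a homophilic adhesion molecule (ENSMUSG00000019889.10, chromosome 10, 28074820 to 28597397, plus strand), and stood at 63.3 and 72.2 CPM in the control libraries against 47.2, 48.6 and 44.4 CPM in Yy1 cKO. The groups did not overlap. The log2 fold change was -0.54 ± 0.076 (adjusted p = 9.0e-04) and stayed between -0.63 and -0.44 when any 1 library was left out. Its relatives went the other way or were not called: Ptprt (0.58 ± 0.12, adjusted p = 0.012) and Ptpru (0.40 ± 0.082, adjusted p = 0.0069) rose and Ptprm stood at 0.03 ± 0.20. The call of Ptprt was lost without control 1 (adjusted p = 0.071) or control 2 (adjusted p = 0.088), and that of Ptpru without control 1 (adjusted p = 0.068). Markers of granule cell precursors and young granule neurons fell in the same libraries in 8 of 8 cases, beside 12.6% of all genes tested. Their summed level was 558 to 619 CPM in the controls and 48.5 to 48.9 CPM in Yy1 cKO. Dcx (314 and 284 CPM in the control libraries) and Sox11 (160 and 148 CPM) were the largest parts of the control sum. Which cells these listed markers came from, and their part in the fall of Ptprk, was not tested.

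Of the 3 transcription factors among the markers 0 were called by edgeR with the filter on low counts, by DESeq2 or by limma, and 0 had an unadjusted p under 0.05 there. By edgeR 23.4% of all genes tested were called, a share at which 0 of 3 says little. TFAP2A and TFAP2B belong to the AP-2 family, which the GABAergic lineage of the cerebellum uses. Tfap2a (ENSMUSG00000021359.16, chromosome 13, 40715302 to 40738376, minus strand) stood at 16.3 and 14.8 CPM in the control libraries against 15.8, 15.7 and 15.5 CPM in Yy1 cKO, so that the controls bracketed every Yy1 cKO library (0.01 ± 0.10, adjusted p = 0.96). Tfap2b (ENSMUSG00000025927.13, chromosome 1, 19208914 to 19238576, plus strand) stood at 46.4 and 52.1 CPM in the control libraries against 50.6, 52.6 and 68.4 CPM in Yy1 cKO. Yy1 cKO 3 was well above the rest, the other libraries overlapped, and Tfap2b was not called (0.22 ± 0.14, adjusted p = 0.32, and 0.07 without Yy1 cKO 3), but it was called when edgeR was run without that filter on low counts (0.22, adjusted p = 0.033). Tfap2c, Tfap2d and Tfap2e were too low to be tested. Pax2 (ENSMUSG00000004231.15, chromosome 19, 44756045 to 44837871, plus strand) stood at 10.3 and 8.59 CPM in the control libraries against 7.70, 7.88 and 8.38 CPM in Yy1 cKO. The lower control lay just above the highest Yy1 cKO library, and Pax2 was not called (-0.24 ± 0.13, adjusted p = 0.23). Of 9 other factors of the GABAergic lineage 5 could be tested and 0 were called by edgeR, DESeq2 or limma, beside 23.4% of all genes tested by edgeR. In edgeR 2 had an unadjusted p under 0.05. Lhx1 stood at 0.06 ± 0.075, Skor2 at 0.21 ± 0.16, Lhx5 at -0.33 ± 0.11 (adjusted p = 0.066), Sall3 at -0.51 ± 0.30 and Neurog2 at -1.47 ± 0.52 (adjusted p = 0.069). Leaving out 1 library brought a call to Neurog2 (without Yy1 cKO 1, adjusted p = 0.028) and Lhx5 (without Yy1 cKO 2, adjusted p = 0.031). Ptf1a and Neurog1, which act early in the lineage, had no count in any library.

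**Figure D3:**
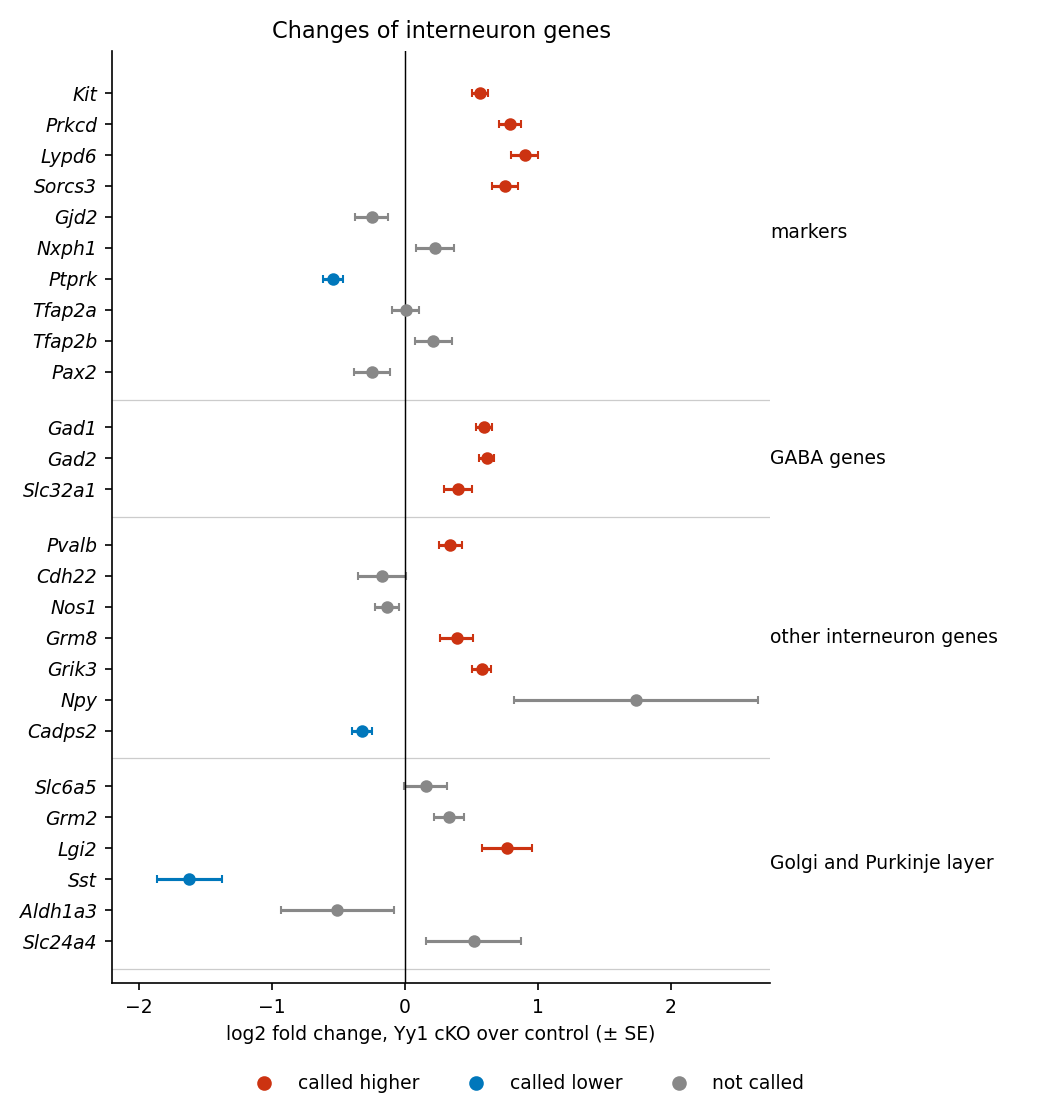
Log2 fold change of Yy1 cKO over control with its standard error for the 10 markers, the GABA genes, other interneuron genes and Golgi or Purkinje layer interneuron genes, coloured by call. Kit, Prkcd, Lypd6 and Sorcs3 sit with Gad1 and Gad2 between 0.56 and 0.90. Ptprk, Cadps2 and Sst, which were called lower, lie below 0, as do Gjd2, Pax2, Cdh22, Nos1 and Aldh1a3, which were not called.

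The genes that make GABA and load it into vesicles were called higher in 3 of 3 cases, beside 10.7% of all genes. Gad1, which makes GABA in all inhibitory neurons, stood at 226 and 208 CPM in the control libraries against 322, 337 and 326 CPM in Yy1 cKO (0.60 ± 0.061, adjusted p = 1.3e-04). Gad2 stood at 72.6 and 69.8 CPM and at 107, 112 and 109.6 CPM (0.62 ± 0.058, adjusted p = 8.0e-05). Slc32a1, the vesicular transporter, rose by 0.40 ± 0.10 (adjusted p = 0.026), a call that leaving out control 2 (adjusted p = 0.18), Yy1 cKO 1 (0.079) or Yy1 cKO 2 (0.068) removed. Purkinje and Golgi cells express these genes too.

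Of 7 other genes known from molecular layer interneurons, several of which Purkinje or granule cells also express, 3 rose and 1 fell. Of all genes tested 10.7% were called higher and 12.6% lower. Grik3, a kainate receptor subunit, rose by 0.58 ± 0.070 and kept its call when any 1 library was left out. Pvalb, parvalbumin, rose by 0.34 ± 0.086 (adjusted p = 0.019) and Grm8 by 0.39 ± 0.12 (adjusted p = 0.046). Leaving out control 2 (adjusted p = 0.20), Yy1 cKO 1 (0.067) or Yy1 cKO 2 (0.066) removed the call of Pvalb, and leaving out any 1 library removed that of Grm8 (adjusted p = 0.064 to 0.27). Cadps2, a vesicle priming protein, fell by 0.32 (adjusted p = 0.012), a call that leaving out control 1 (adjusted p = 0.056), control 2 (0.14) or Yy1 cKO 1 (0.050) removed. Cdh22 (-0.17 ± 0.18), a cadherin, and Nos1 (-0.13 ± 0.089), neuronal nitric oxide synthase, were not called. Npy stood at 1.29 and 0.781 CPM in the control libraries against 5.54, 4.05 and 0.806 CPM in Yy1 cKO. Yy1 cKO 3 lay with the controls there, and Npy was called without it (2.20, adjusted p = 2.9e-05) but not with it (1.74 ± 0.92, adjusted p = 0.27). The call without Yy1 cKO 3 rests on Yy1 cKO 1 and 2 alone.

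Genes of the other cortical interneurons, the Golgi cells and the interneurons of the Purkinje layer, were called in 2 of 6 cases, beside 23.4% of all genes tested. Lgi2 rose by 0.77 ± 0.18 (adjusted p = 0.041), a call lost without control 1 or control 2 (adjusted p = 0.17 and 0.16). Sst, somatostatin, fell from 3.12 and 3.40 CPM to 1.16, 1.10 and 0.913 CPM (-1.62 ± 0.24, adjusted p = 0.0013). Slc6a5, the glycine transporter that marks glycinergic cells, was not called (0.16 ± 0.16, adjusted p = 0.54), and Grm2, a receptor of Golgi cells, missed the threshold at 0.34 ± 0.11 (adjusted p = 0.059) and passed it when Yy1 cKO 3 was left out (0.39, adjusted p = 0.014).

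Set against the summed CPM of Gad1, Gad2 and Slc32a1 in the same library, the markers spread out. The log2 ratio of Kit to these genes was -1.41 in both groups (control -1.49 and -1.32, Yy1 cKO -1.38, -1.54 and -1.31), a difference of -0.003 beside a pooled SD of 0.12. The ratios of Lypd6, Prkcd and Sorcs3 were higher in Yy1 cKO than in the controls by 0.34, 0.22 and 0.18 on the log2 scale, with overlap between the groups for Sorcs3. Those of Tfap2a, Gjd2 and Ptprk were lower in Yy1 cKO, with differences of -0.56, -0.82 and -1.10 and no overlap. Nxph1 (-0.32, no overlap) and Tfap2b (-0.36, with overlap) lay between these groups of markers. The ratio of Pax2, which marks newly formed interneurons, was -5.19 and -5.32 in the control libraries against -6.09, -6.13 and -5.95 in Yy1 cKO, a difference of -0.80. An exact two-sided permutation test over the 5 libraries gave p = 0.1, which is the smallest it can give with 2 libraries against 3. All 3 genes of the denominator rose, while Pax2 itself was not called. The ratios of the other 9 markers were computed after their fold changes were known and are descriptions. The genes of the Pax2 ratio were also chosen with earlier results of these data known, so its test adds no support.

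**Figure D4:**
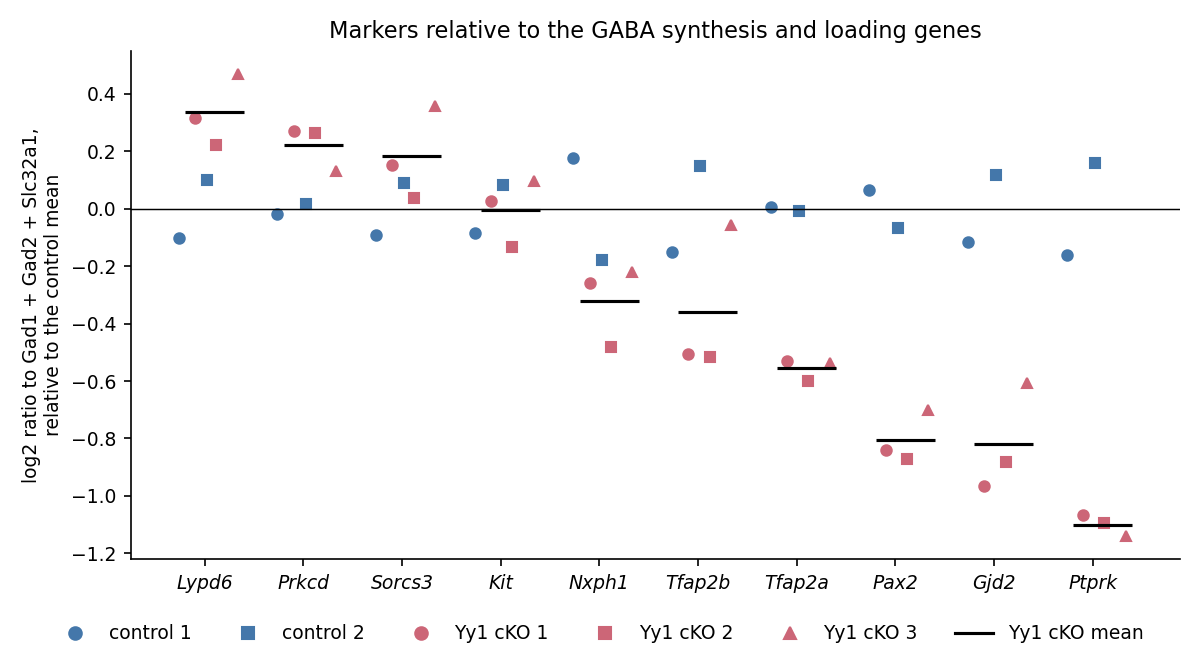
Log2 ratio of each marker to the summed CPM of Gad1, Gad2 and Slc32a1 in each library, relative to the control mean (0). Yy1 cKO means (lines) run from 0.34 for Lypd6 to -1.10 for Ptprk, with Kit at -0.003.

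Markers of other cell types moved in the same libraries. The counts that follow stand beside 10.7% of all genes tested called higher and 12.6% called lower. All 8 mature granule neuron markers rose (median 0.56 on the log2 scale), with a summed level of 3777 to 3778 CPM in the controls and 5071 to 5508 CPM in Yy1 cKO. The call of Etv1 was lost without control 1 (adjusted p = 0.052) and that of Fat2 without control 2 (adjusted p = 0.062). Of 9 Purkinje cell markers 2 rose (Itpr1 and Aldoc, the latter with adjusted p = 0.11, 0.075 and 0.062 when control 2, Yy1 cKO 1 or Yy1 cKO 2 was left out), with a summed level of 4270 to 4386 CPM in the controls and 5219 to 6346 CPM in Yy1 cKO. Car8 was called higher as well when Yy1 cKO 3 was left out (0.30, adjusted p = 0.0021). Of 6 oligodendrocyte precursor markers 5 fell (summed level 214 to 235 CPM in the controls and 140 to 153 CPM in Yy1 cKO), but 2 were called lower without control 2 and 3 without Yy1 cKO 2. Of 6 endothelial and mural cell markers 4 fell and 1, Flt1, rose. Without control 1, control 2 or Yy1 cKO 1 only 2 of them were called lower, and Flt1 lost its call without any 1 library other than Yy1 cKO 3 (adjusted p = 0.068 to 0.23). The part of these shifts in the values of the interneuron markers was not tested. Microglia genes were called in 0 of 5 cases by edgeR and also by DESeq2 and limma, with 0 at an unadjusted p under 0.05, and none of the 6 mast cell genes reached the filter.

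**Figure D5:**
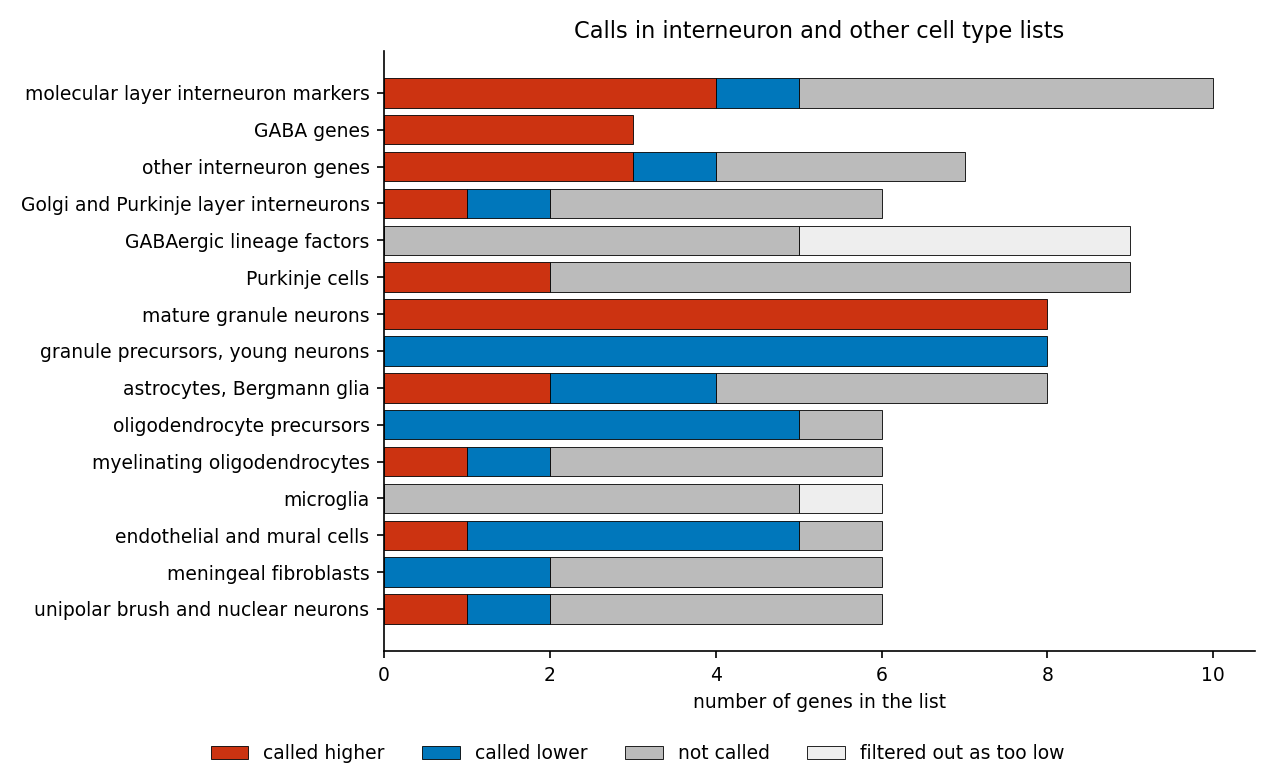
Number of genes called higher, called lower, not called or filtered out in the marker list, in lists of related interneuron genes and in lists of other cell types. Mature granule neuron markers were higher in 8 of 8 cases and granule precursor markers lower in 8 of 8, with the 10 interneuron markers between them at 4 higher and 1 lower.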

How the data were processed

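The submitters' processing notes name FastQC 0.11.8, Trimmomatic 0.39, STAR 2.7.1a, featureCounts, DESeq2 1.26.0 and the build GRCm38, with no order or settings; the strand setting of the counting is not given in the sources used here. Libraries were strand-specific and depleted of ribosomal RNA, per the labels' protocols. The authors deposited raw counts of 55421 genes and a normalized signal of 24859, which is the raw count over 1 constant per library.

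Symbols, positions and exon lengths came from GENCODE M21 on GRCm38; 181 gene identifiers had no match. Raw counts were tested with the edgeR 4.0.16 quasi-likelihood test in R 4.3.3 (TMM, filterByExpr, robust dispersion, no covariate, Benjamini-Hochberg adjustment over 20388 genes, threshold 0.05), after a run on simulated counts. A standard error is the log2 fold change over the root of F. Libraries of a pair differed by more than sampling noise (chi-square per gene of at least 3.5). Replicate numbers were not used to pair samples in the main test. Members and lists were chosen with earlier results of these data known. All 10 markers are named, and from other lists the members that describe them; some genes first placed in those lists were taken out of them, are not reported here and enter no count. Alternatives were other scalings, filters, tools (DESeq2 1.42.0 and limma 3.58.1), thresholds, a replicate block, log2 CPM of Xist as covariate and leaving out each library; the last was added for other lists after the data were seen.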

Additional observations from a re-analysis of the deposited data

How the results depend on the processing

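Kit, Prkcd, Sorcs3, Lypd6 and Ptprk kept their direction under all 18 alternatives run for each, and their call except that Kit (0.56) and Ptprk (-0.54) lost it when at least a 1.5-fold change was required, with log2 fold changes of 0.49 to 0.61, 0.71 to 0.85, 0.68 to 0.80, 0.83 to 0.94 and -0.63 to -0.44. The cause of the following changes was not tested unless the setting itself gives it. Tfap2b was called without a filter on low counts (0.22, adjusted p = 0.033) and Gjd2 with the replicate number as a block (-0.34, adjusted p = 0.022), so that 2 markers were called lower with the replicate block. These edgeR settings gave much smaller adjusted p-values: for Kit 3.0e-16 without the filter and 4.6e-27 with the block, against 1.7e-04 in the main fit. Their error estimates thus differ from that of the main fit, which limits the calls gained there. Replicate 3 was in Yy1 cKO only, so the block took that library out of the group comparison. Gjd2 likewise stood at -0.34 without Yy1 cKO 3. Deviations of same-numbered libraries from their group means correlated at 0.04 and 0.01. With 2 controls these deviations mirror each other, so the values cannot tell whether the numbers pair the samples. The block raised the calls among all genes from 4762 to 7061, with 3486 higher. Requiring at least a 1.5-fold change left 3 markers called (0 lower) and 2190 genes (683 higher, 1507 lower), and an adjusted p of 0.01 left 2548 genes (1095 higher, 1453 lower). Library size alone gave 1432 higher genes. Pax2 against Slc32a1 alone differed by -0.64.

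Leaving out 1 library gave 5 to 6 markers called (4 to 4 higher, 1 to 2 lower), 2187 to 6117 genes (887 to 2990 higher, 1267 to 3127 lower), with 2187 without control 1 and without control 2 and 6117 without Yy1 cKO 3, and a Pax2 ratio of -0.87 to -0.74. It gave log2 fold changes of -0.34 to -0.16 for Gjd2, 1 to 3 higher and 0 to 1 lower among other interneuron genes, 0 to 2 higher among Golgi and Purkinje layer genes, 0 to 1 lower among lineage factors, 1 to 3 higher among Purkinje cell markers, 2 to 5 lower among oligodendrocyte precursor markers, and 0 to 1 higher and 2 to 5 lower among endothelial and mural cell markers. A lone control was taken to vary like the Yy1 cKO group. The 5 markers not called had standard errors of 0.10 to 0.14 on the log2 scale, and values as large as -0.25 (Gjd2) and -0.24 (Pax2) did not pass the threshold, so changes of that size could be missed with these libraries.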
